A study of Mus musculus with 24 samples.

Results

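The 8 arrays of E12.5, a stage given in days of embryonic development, were examined for genes whose levels differed between samples of a single stage. They were taken by their titles, which name mouse pleuroperitoneal fold at E12.5, and made up 8 of the 24 arrays of the series. Within them, the standard deviation (SD) of each gene and its Pearson correlation with Actn2 and with Alb were computed for the 7487 of 19351 genes whose mean was 8 or more on the log2 scale. Actn2, the alpha-actinin of muscle Z-discs, stood for the muscle content of a sample, and Alb, the serum albumin made by liver cells, for liver transcripts. The genes described were chosen by these correlations and SDs, which are therefore given as descriptions and were not tested. Every correlation runs over the same 8 arrays, so 1 array that stands apart moves many genes together.

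All embryos were of the C57BL/6J strain, and the labels name no mutation or treatment. The folds of E11.5 and E12.5 had been cut by laser capture from transverse cryosections of the thorax, and the diaphragm of E16.5 from sagittal ones, so stage and plane of section cannot be told apart where E16.5 is set against a fold stage. Each stage had 8 arrays (Affymetrix Mouse Gene 1.0 ST), 1 per sample. No label ties a sample to an embryo or litter, so every SD and p-value below measures the spread between these samples, which may be partly technical.

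The pleuroperitoneal folds are paired ridges of mesenchyme that close the opening between the chest and the abdomen and give the diaphragm its connective tissue. Muscle precursors enter them from the cervical somites, divide, and turn on the myogenic regulators Myod1 and Myog before they build sarcomeres. The folds lie against the liver, which at this age is also where red blood cells mature. Genes of the fold itself were well measured in all samples: Wt1, a transcription factor of the fold and the mesothelium, stood at 10.4 ± 0.27 (SD, n = 8 arrays, log2 intensity), and Gata4 at 9.71 ± 0.28.

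Most genes differed little between the 8 arrays. The median SD over the 7487 genes was 0.21 on the log2 scale, against 0.30 at E11.5 and 0.24 at E16.5 for the same genes. An SD of 0.8 or more was found for 86 genes (1.15%) at E12.5, 182 (2.43%) at E11.5 and 55 (0.735%) at E16.5. The first 4 principal components of the E12.5 arrays held 28.5%, 19.5%, 14.4% and 11.8% of the variance. Array 2 lay alone at an end of the first component, array 4 at an end of the second and array 3 at an end of the third. The mean correlation of an array with the other 7 was 0.956 for array 2 and 0.974 to 0.980 for the rest.

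The 86 genes of highest spread fell mostly into a muscle group and a liver and blood group. When they were joined by average linkage on 1 minus the correlation, with joins up to 0.3, 49 of them lay in the 2 groups that held 10 genes or more. The first group had 26 genes, among them Actn2, Acta1, Myh3, Myh8, Ttn, Tnnt3, Atp2a1 and Casq2, which build or drive the contractile apparatus. Its mean profile was 1.97 above the gene means in array 3 and lay at -1.71 in array 2, while the other 6 arrays lay between -0.29 and 0.25. The second group had 23 genes, with albumin, alpha-fetoprotein (Afp), apolipoproteins and transthyretin (Ttr) beside red cell genes such as Hemgn and Cpox. It was 2.42 above the gene means in array 2 and 0.58 above in array 4, and between -0.87 and -0.20 in the other 6. The 86 genes came from the same arrays that grouped them, so the grouping is a description only.

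**Figure D1:**
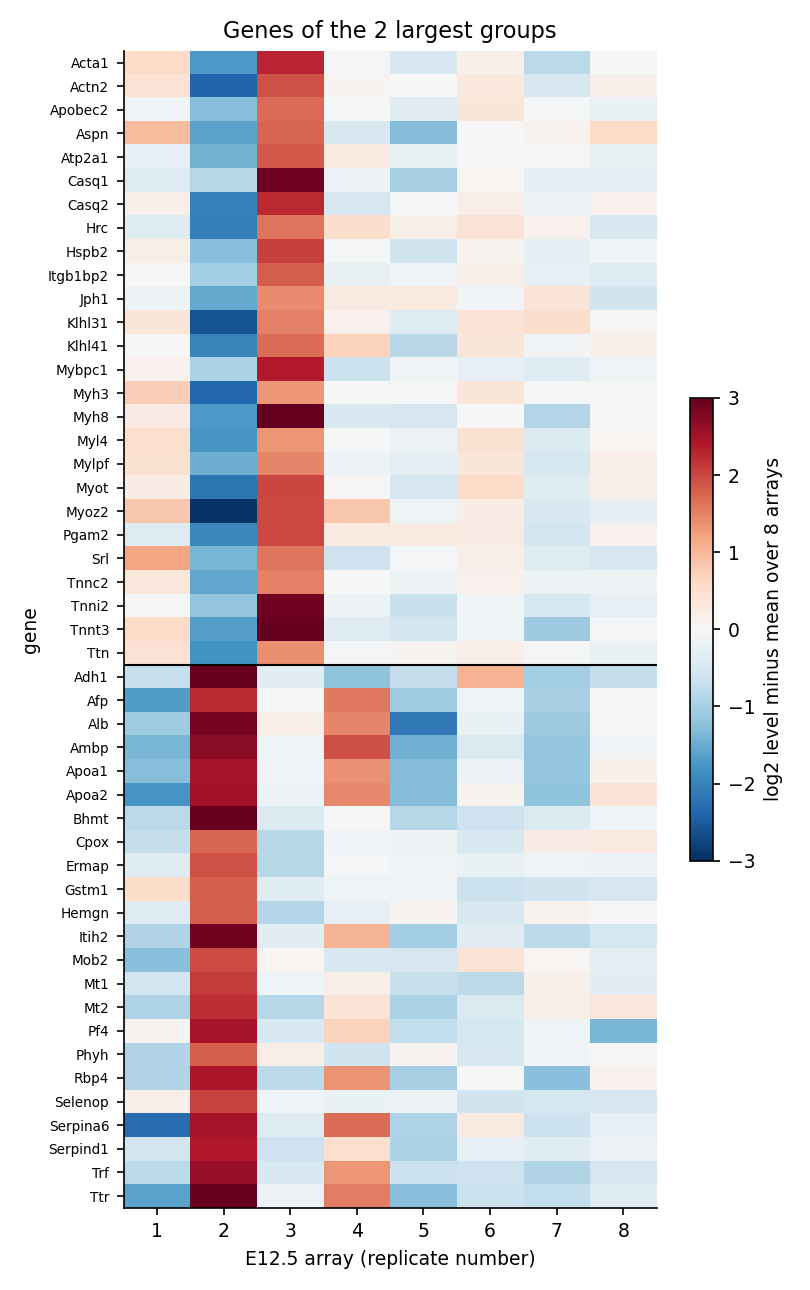
Level of the 49 genes of the muscle group (upper 26 rows) and of the liver and blood group (lower 23 rows) in the 8 arrays of E12.5, as log2 level minus the gene's mean over the arrays, with colours ending at 3 and -3. Array 3 is high and array 2 low in the upper block, and array 2 is high in the lower block, with array 4 next for the liver genes.

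Actn2 itself varied widely. In arrays 1 to 8 it measured 10.011, 7.210, 11.502, 9.652, 9.562, 9.893, 9.092 and 9.728 (mean 9.58 ± 1.19 SD, n = 8). Array 3 was the highest and array 2 the lowest, and the other 6 arrays lay between 9.09 and 10.01. Alb measured 9.37, 13.32, 10.64, 11.90, 8.30, 10.24, 9.35 and 10.40 (mean 10.44 ± 1.58). Arrays 2 and 4 were highest and array 5 lowest, with no gap between middle and low arrays as wide as that above them. The negative correlation of the 2 reference genes rested on array 2: Pearson r was -0.48 over the 8 arrays and Spearman rho -0.02. Without array 2 r was 0.29, and without array 3 it was -0.68. It became 0.20 without the 2 arrays farthest from the median of Actn2 (arrays 2 and 3). At the other stages Actn2 ran from 6.97 to 8.86 (E11.5) and from 12.4 to 13.1 (E16.5), and Alb from 5.78 to 6.70 and from 11.53 to 13.22.

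**Figure D2:**
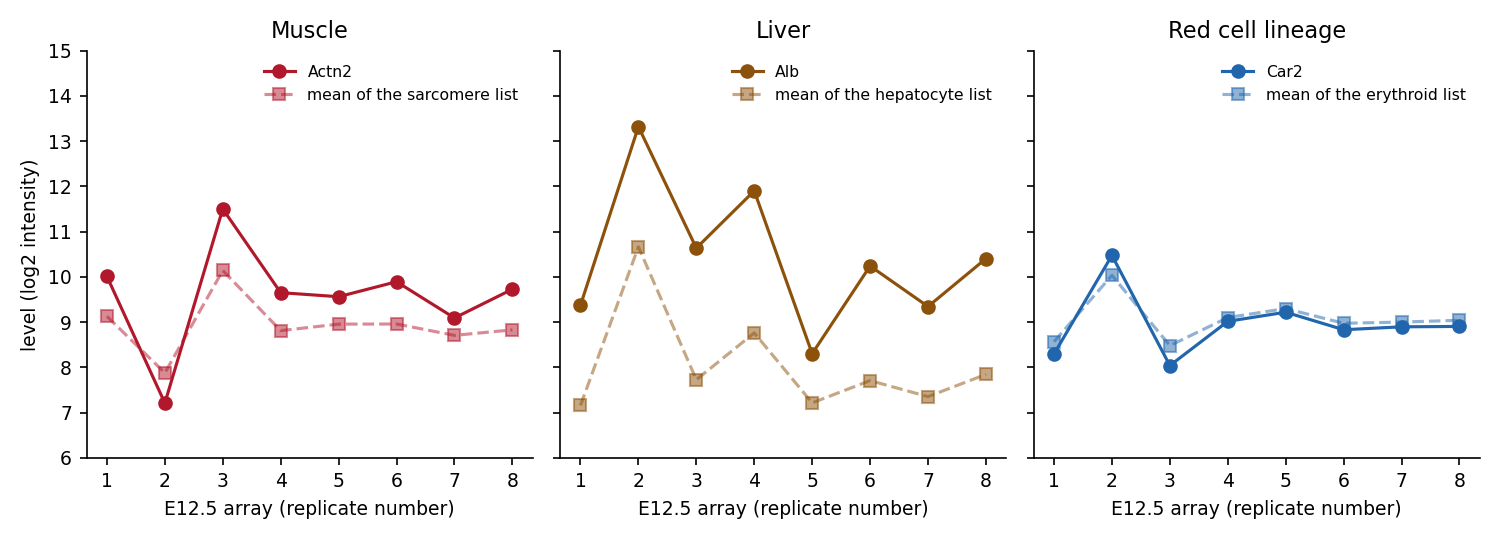
Level in each E12.5 array (x axis, replicate number; y axis, log2 intensity) of Actn2, Alb and Car2 (circles) and of the mean of all matched genes of the sarcomere, hepatocyte and erythroid lists (squares). Actn2 and the sarcomere list are highest in array 3 and lowest in array 2, Alb and the hepatocyte list are highest in arrays 2 and 4, and Car2 and the erythroid list are highest in array 2.

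With Actn2, 65 of 7486 genes (0.868%) had a correlation of 0.9 or more and 21 (0.281%) one of -0.9 or less. Of the 65, 30 belonged to the lists of muscle genes and 35 to no list. The nearest genes on either side of the limit were Trib2 (0.902) and Ryr1 (0.904) inside, and Lrrn1 (0.8997) and Hrc (0.8988) outside. The most closely related were Myl4, an atrial and embryonic myosin light chain, and Tnni1, slow troponin I, both at 0.99, then Cryab, a small heat shock protein of muscle, and Tnnc2, fast troponin C, at 0.98. In each of the 65 genes array 3 lay above and array 2 below all of the other 6 arrays, an arrangement that 4.39% of the 7486 genes showed. The 65 were chosen by their correlation with Actn2 over these arrays, so the arrangement largely follows from the choice. Over the 6 arrays other than 2 and 3 the median correlation of the 65 was 0.54, and 7 of these genes still reached 0.9. Most of the relation thus rested on arrays 2 and 3.

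Sarcomere genes followed Actn2 as a body. Of 48 matched genes, 29 had a mean of 8 or more, and the other 28 of these had a median correlation with Actn2 of 0.93 (rho 0.83), against 0.05 over all genes, with 19 at 0.9 or more. Among thick filament genes, Myh3, the embryonic myosin heavy chain, ran from 7.72 in array 2 through a median of 10.1 to 11.4 in array 3 (r 0.97). Myh7, the slow heavy chain, ran from 7.08 to 8.85 (r 0.92). In the thin filament, Actc1, the cardiac actin that embryonic skeletal muscle also uses, measured 11.42 in array 2 and 12.98 to 13.59 in the other 7 arrays. Acta1, the skeletal actin, spread further, from 8.06 to 12.1, and its correlation was 0.95 with all arrays and 0.95 without arrays 2 and 3.

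Neb, the giant protein that sets thin filament length, ran from 8.89 to 11.6, and Ttn, the spring of the sarcomere, had an r of 0.98, again with array 2 lowest and array 3 highest. At the Z-disc, Myoz2 had the lowest value of any sarcomere gene of this level in array 2, 5.52, against 7.97 to 10.4 elsewhere, and Myot ran from 6.44 to 10.6. Of the 29 genes, which include Actn2 itself, array 3 exceeded the other 6 arrays in 29 and array 2 lay below them in 26. Over the 7486 genes other than Actn2 the shares were 19.6% and 22.1%. Actn3, the fast-fibre relative of Actn2, was the least related of the 28, with r 0.46 (8.84 in array 3 and 8.67 in array 7, and 7.79 to 8.26 elsewhere). Without arrays 2 and 3 the median over the 28 fell to 0.61.

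The muscle genes did not all move in one proportion. For some the high value of array 3 was the main feature. Myh8, the perinatal myosin heavy chain, measured 12.3 in array 3, 7.30 in array 2 and 8.14 to 9.26 in the other 6. Tnnt3 and Tnni2, fast troponins, measured 13.2 and 12.6 in array 3, against at most 10.5 and 9.66 elsewhere. Mybpc1, a myosin-binding protein of slow fibres, measured 11.1 against at most 8.84. Casq1, the calcium store protein of fast fibres, measured 10.9 against 7.02 to 8.08 in all other arrays, array 2 (7.17) not being the lowest; its mean, 8.02, reached 8 only through array 3.

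For others the low value of array 2 was as large a feature or larger. Myoz2 lay 2.97 below the median of the other 6 arrays in array 2 and 1.93 above it in array 3. For Myh3 these distances were 2.37 and 1.28, and for Klhl41, a stabiliser of the thin filament, 2.07 and 1.60. For Myh8 they were 1.46 and 3.58. Over the 29 sarcomere genes the distance of array 3 was the larger in 10, with medians of 1.29 for array 3 and 1.46 for array 2. Over the 65 genes related to Actn2 it was larger in 15. Over the 11 muscle energy genes it was larger in 6, a share near that of all genes, 3936 of 7486. Eno3, muscle enolase, measured 10.7 in array 3 and 8.77 to 9.26 elsewhere, whereas Pgam2, muscle phosphoglycerate mutase, lay 2.12 below the median of the other 6 in array 2 and 1.79 above it in array 3. Ckm, muscle creatine kinase, measured 10.0 in array 3 and 7.72 to 8.04 elsewhere, and its mean, 8.16, reached 8 only through array 3.

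**Figure D3:**
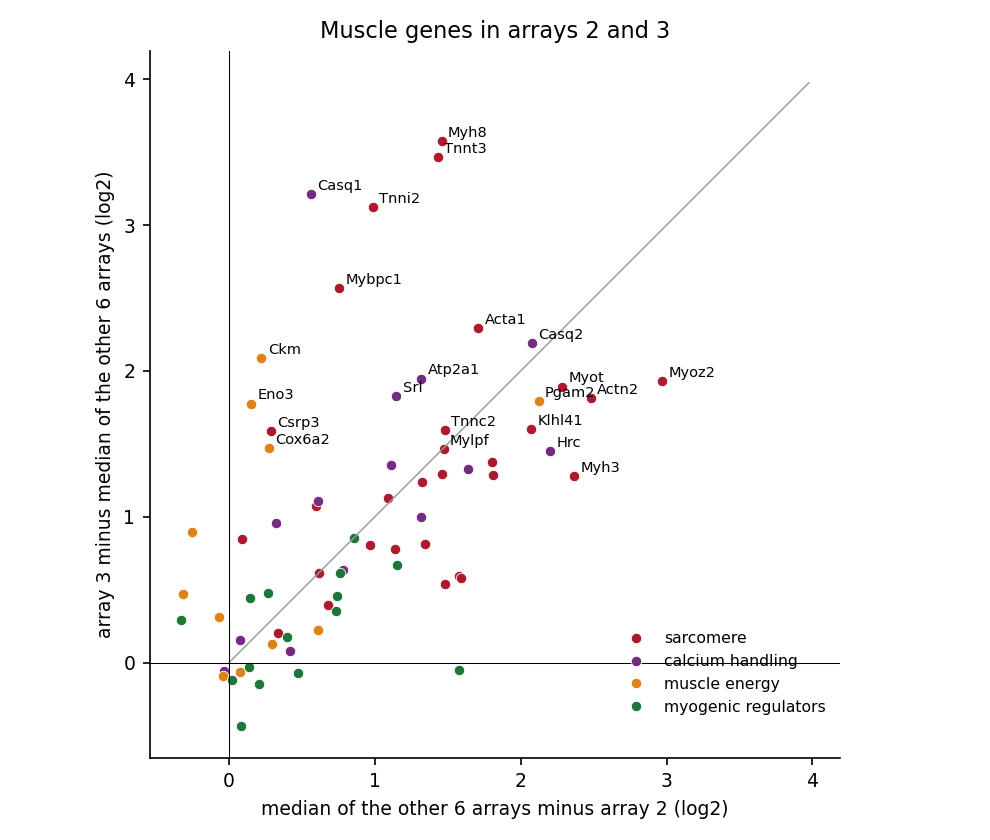
Each point is a muscle gene with an E12.5 mean of 8 or more, coloured by list; the x axis gives how far array 2 lay below, and the y axis how far array 3 lay above, the median of the other 6 arrays (log2), with the line of equal distances. Myh8, Tnnt3 and Tnni2 lie well above the line, and Myoz2 and Myh3 below it.

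Genes that start muscle differentiation had a lower median SD (0.30) than sarcomere genes (0.75), a difference that was not tested. Of the 28 matched myogenic regulators, 15 had a mean of 8 or more, with a median correlation of 0.59, and 3 reached 0.9. These were Mef2c (r 0.97, from 9.45 to 11.3), Myod1 (0.96, from 8.63 to 10.0) and Myog (0.94, from 9.71 to 10.8), each lowest in array 2 and highest in array 3. For Myod1 the other 6 arrays lay between 9.30 and 9.55 and for Myog between 10.32 and 10.51, and the correlation over these arrays was 0.22 and -0.06. Genes of the precursors differed among themselves. Meox2, a homeobox regulator of limb muscle, measured 7.16 in array 2 and 8.27 to 8.98 in the other 7 (r 0.77). Myf5 ran from 7.72 to 8.38 (r 0.46), Pax3 from 7.40 to 8.55 (r -0.31, mean below 8) and Lbx1, which marks migrating precursors, from 7.92 to 8.15 (r -0.33). Mymk, which fuses myoblasts, measured 10.69 in array 3, 10.49 in array 4 and 8.97 in array 2 (r 0.84).

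Genes of the triad, where calcium is released, and of the nerve contact had high correlations with Actn2 that rested on arrays 2 and 3. Of 14 calcium-handling genes at this level 4 reached 0.9 (Casq2, Sln, Atp2a1 and Ryr1) with a median of 0.85. Atp2a1, the calcium pump of fast fibres, measured 10.98 in array 3, 7.71 in array 2 and 8.87 to 9.39 in the other 6. Of 6 neuromuscular junction genes 3 reached 0.9: the acetylcholine receptor subunits Chrng (0.92) and Chrnb1 (0.94), and Musk (0.93), the kinase that clusters the receptor. Without arrays 2 and 3 the medians were -0.13 (calcium handling) and 0.175 (junction), and the correlation was -0.28 for Atp2a1, -0.47 for Ryr1 and -0.14 for Chrnb1. By Spearman over all 8 arrays the medians were 0.49 and 0.51. Over 37 extracellular matrix genes the median was 0.65 (rho 0.43), with none at 0.9 or more. For these genes it fell to 0.096 without arrays 2 and 3. Aspn, a small proteoglycan, was the most variable of these (SD 1.12, r 0.81). With Actn2, the fold mesenchyme list (25 genes, median 0.22), the mesothelium list (13 genes, 0.02) and the endothelium list (10 genes, 0.02) lay near the median of all genes, 0.05. With Alb their medians were -0.46, -0.37 and 0.21, and that of the extracellular matrix list -0.56, against -0.05 over all genes. Without arrays 2 and 5 the Alb medians were -0.26 (fold mesenchyme), -0.50 (mesothelium), 0.13 (endothelium) and -0.31 (matrix).

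The 35 genes related to Actn2 that were on no list included other genes of muscle. Hspb2, a small heat shock protein of muscle, measured 10.8 in array 3, 7.505 in array 2 and 8.17 to 8.93 in the other 6. Apobec2, a muscle deaminase family member, measured 10.6, 7.63 and 8.56 to 9.27 in the same order, and Klhl31, a Kelch protein of muscle, 10.6, 6.48 and 8.68 to 9.60. Gja5, the gap junction protein connexin 40, measured 10.5, 8.10 and 8.71 to 9.75. The remaining genes of the 35 had narrower ranges. Des ran from 8.44 to 10.07, Vgll4, a cofactor of TEAD factors, from 8.26 to 9.54, and Srsf6, a splicing factor, from 10.57 to 11.13, all with array 2 lowest and array 3 highest. The median SD of the 65 genes was 0.51 and the lowest 0.089, so a correlation of 0.9 was reached by genes of very unequal spread.

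Promoters of the genes related to Actn2 were searched for CAGCTG, an E-box bound by MyoD-family factors that reads the same on both strands. RefSeq windows of 300 bases (250 before and 50 after the start, build GRCm38.p6) were found for 55 of the 66 genes that comprise Actn2 and the 65. The motif was in a window of 21 of the 55 genes (38.2%), in 18.3% of all 27025 genes of the table and in 16.4% of the genes with an E12.5 mean of 8 or more. By window the shares were 32.5% of 80 and 16.3% of 32851. For 3 genes of high correlation whose window holds the motif, the 250 bases before the start are shown. They had the highest correlations after all genes of a single chromosome had been left out of the choice. A gene there with a higher correlation could not be shown. The genes, with the motif in capitals, are Tnni1 (chr1:135799171-135799420, plus strand), Mybph (chr1:134193198-134193447, plus strand), a myosin-binding protein, and Tpm2 (chr4:43523555-43523804, minus strand), a tropomyosin.
Tnni1: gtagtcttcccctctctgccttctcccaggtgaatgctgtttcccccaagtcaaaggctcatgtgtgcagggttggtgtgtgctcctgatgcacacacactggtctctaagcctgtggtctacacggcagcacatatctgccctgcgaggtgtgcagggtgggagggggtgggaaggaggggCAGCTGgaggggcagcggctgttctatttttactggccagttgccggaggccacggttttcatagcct
Mybph: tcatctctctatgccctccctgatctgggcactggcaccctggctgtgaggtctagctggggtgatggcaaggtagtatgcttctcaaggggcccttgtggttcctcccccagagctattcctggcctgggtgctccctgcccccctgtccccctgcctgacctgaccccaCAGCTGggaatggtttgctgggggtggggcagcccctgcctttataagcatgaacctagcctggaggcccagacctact
Tpm2: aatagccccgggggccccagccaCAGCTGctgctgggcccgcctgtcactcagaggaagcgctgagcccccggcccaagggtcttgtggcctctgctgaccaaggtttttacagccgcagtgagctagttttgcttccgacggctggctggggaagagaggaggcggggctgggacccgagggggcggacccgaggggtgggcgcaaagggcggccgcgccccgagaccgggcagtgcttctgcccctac
The motif began 68 bases before the start in Tnni1, 79 in Mybph and 227 in Tpm2. A match of letters does not show that a factor binds there.

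Liver genes with a mean of 8 or more mostly followed Alb over the range of the arrays. Of 7486 genes, 31 (0.414%) had a correlation with Alb of 0.9 or more and 27 (0.361%) one of -0.9 or less. Necap2 (0.9003) and Vkorc1 (0.906) were just inside the upper limit, and Nmt1 (0.8999) and Mcts1 (0.894) just outside. Of 28 matched hepatocyte genes, 10 had a mean of 8 or more, and the other 9 of these had a median correlation of 0.95 (rho 0.93), with 8 at 0.9 or more. Without arrays 2 and 5, the farthest from the median of Alb, the median over these 9 genes was 0.94. The 6 arrays left still held array 4, with Alb at 11.90 against 9.35 to 10.64 in the rest, so that array weighs heavily in this value. The correlation without array 4 as well was not computed. In all 10 genes, which include Alb itself, array 2 was highest, array 4 next and every other array lower. This order was found in 196 of the 7487 genes. Among the 10 genes Itih2 reached a mean of 8 (8.15) only through array 2.

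Afp, the albumin of the fetus, measured 8.49, 12.41, 10.16, 11.75, 9.09, 10.09, 9.19 and 10.15 in arrays 1 to 8. Apoa2, an apolipoprotein of HDL, measured 9.62, 13.90, 11.23, 12.82, 10.09, 11.48, 10.18 and 11.77. Ttr, the thyroid hormone and retinol carrier, measured 7.43, 12.30, 8.86, 10.57, 7.78, 8.39, 8.30 and 8.65. Arrays 2 and 4 stood above the others in each, arrays 3, 6 and 8 formed the middle, and arrays 1, 5 and 7 were lowest. In 24 genes of the 31 both arrays 2 and 4 lay above the other 6 (4.10% of all genes), and in 24 of the 27 inversely related genes both lay below (8.84%). Both sets were chosen by their correlation with Alb over these arrays, so the arrangement largely follows from the choice. Of the 31 genes, 8 were on the hepatocyte list and 23 on no list, Vamp8, a vesicle fusion protein, being the closest to Alb (r 0.99).

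Among the 23 genes on no list, Serpind1, heparin cofactor II of the plasma, measured 10.7 in array 2, 8.84 in array 4 and 7.40 to 8.18 in the other 6. The others varied less. Sod2, the mitochondrial superoxide dismutase, ran from 7.83 to 8.98 (r 0.91), and Vkorc1, which recycles vitamin K, from 8.73 to 9.77. The 27 genes inverse to Alb had no SD above 0.46 and held no large group of a single role. Zfp57 measured 9.62, 9.84 and 9.63 in arrays 2, 3 and 4 and 10.37 to 10.73 in the rest, and Farp1, an exchange factor for small GTPases, ran from 8.26 in array 2 to 9.48 (r -0.96).

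Other liver genes were high in array 2 alone. Cps1, the first enzyme of the urea cycle, measured 10.7 in array 2 and 6.20 to 6.67 in the other 7. Apoh, a plasma glycoprotein, measured 10.3 there and 5.57 to 6.11 elsewhere, and Fetub, fetuin B, 8.66 and 5.29 to 5.69. Array 4, second for Alb, measured 6.31 for Cps1, 5.74 for Apoh and 5.54 for Fetub, within the range of the arrays with little Alb. At E11.5, with Alb at 5.78 to 6.70, these genes measured 6.16 to 6.66, 5.57 to 6.08 and 5.32 to 5.78. Array 4 was thus near the floor for them, where a small signal can be missed. Bhmt, a liver methyltransferase, was likewise 11.3 in array 2 and 7.25 to 8.11 elsewhere, and Adh1, alcohol dehydrogenase, 11.9 in array 2, 9.26 in array 6 and 7.02 to 7.91 in the rest. The means of Cps1, Apoh and Fetub were below 8, so they did not enter the counts above. Those of Bhmt (8.11) and Adh1 (8.23) reached 8 only through array 2.

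**Figure D4:**
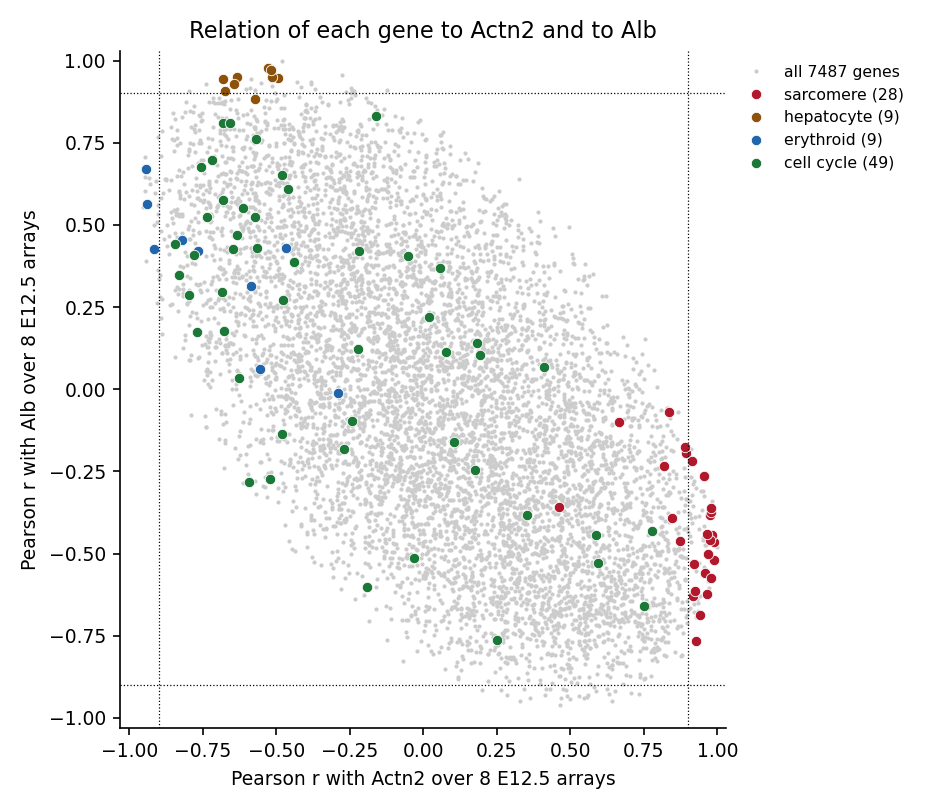
Pearson correlation of each of the 7487 genes with Actn2 (x axis) and with Alb (y axis) over the 8 arrays of E12.5, with the genes of 4 lists coloured and dotted lines at 0.9 and -0.9. Sarcomere genes sit at the right edge, 19 of 28 beyond 0.9, hepatocyte genes at the top, 8 of 9 beyond 0.9, and 3 of 9 erythroid genes beyond -0.9 on the left.

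For the liver genes the promoters were searched for GTTAAT or its complement, the half-site of HNF1, a liver transcription factor. Windows were found for 24 of the 32 genes that comprise Alb and the 31, and 3 of the 24 held the letters, against 8.24% of the 27025 genes and 4.75% of the genes with an E12.5 mean of 8 or more. By window the shares were 10.3% of 29 and 7.10% of 32851. CAGCTG was in 2 of these 24 genes (8.33%), and GTTAAT in 4 of the 55 genes related to Actn2 (7.27%). Alb (chr5:90460620-90460869, plus strand) and Afp (chr5:90490464-90490713, plus strand), neighbours on chromosome 5, are shown because they carry the liver signal of these arrays, with the half-site in capitals.
Alb: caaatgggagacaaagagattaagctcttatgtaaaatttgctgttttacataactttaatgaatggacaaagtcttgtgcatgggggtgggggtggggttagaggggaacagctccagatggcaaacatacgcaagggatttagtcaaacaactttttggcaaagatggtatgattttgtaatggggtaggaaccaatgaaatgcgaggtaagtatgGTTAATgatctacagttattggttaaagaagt
Afp: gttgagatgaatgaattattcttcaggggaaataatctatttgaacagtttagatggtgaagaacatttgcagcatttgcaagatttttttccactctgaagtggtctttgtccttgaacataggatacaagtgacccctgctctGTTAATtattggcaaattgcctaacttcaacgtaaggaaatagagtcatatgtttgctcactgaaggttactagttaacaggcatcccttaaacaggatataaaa
The half-site began 32 bases before the start in Alb and 105 in Afp.

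Red cell genes ran inversely to Actn2. Over the 9 erythroid genes at this level the median correlation with Actn2 was -0.77 (rho -0.81), and with Alb 0.43 (rho 0.07). Car2, a carbonic anhydrase (8.30, 10.48, 8.04, 9.02, 9.22, 8.83, 8.90 and 8.91 in arrays 1 to 8), Ermap, a red cell surface protein (8.14, 10.41, 7.65, 8.44, 8.41, 8.31, 8.38 and 8.33), and Slc4a1, the band 3 anion exchanger (9.01, 10.84, 8.86, 9.53, 10.05, 9.33, 9.69 and 9.68), had r of -0.94, -0.94 and -0.92 with Actn2. Array 2 was highest and array 3 lowest for all 3. Hemgn, of the red cell nucleus, had the most negative r of the 7486 genes, -0.95. Cpox, an enzyme of haem synthesis, measured 12.05 in array 2 and 9.43 to 10.58 in the other 7. Genes of cell division were also among the 21, such as Mcm10, a replication factor, at 9.12 in array 2 and at most 8.39 elsewhere. Without arrays 2 and 3 the median over the 9 erythroid genes was -0.47.

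The embryonic globins had another order. Hbb-bh1 measured 12.99 in array 2, 12.96 in array 5, 12.7 in array 4 and 10.7 to 12.2 in the others, and Hba-x was highest in array 5 (13.3). Hbb-y, at 13.5 to 13.7 in every array, left little room to vary. Thus array 5, with the lowest Alb, was among the highest for these globins. In a bulk sample, fewer cells of a type and less RNA per cell cannot be told apart, for muscle, liver and blood genes alike. Cell cycle genes had a median correlation of -0.48 with Actn2 over 49 genes (rho -0.24), with none beyond -0.9. Without arrays 2 and 3 that median was -0.05. The mean of the cell cycle list was 10.2 in array 2 and 10.0 to 10.1 in the others.

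Some highly variable genes followed neither reference gene. Xist, the RNA of the inactive X chromosome and the gene of highest SD (3.08), measured 11.7 to 11.9 in arrays 1, 6, 7 and 8, 5.43 to 5.88 in arrays 3, 4 and 5, and 7.87 in array 2. Eif2s3y, Kdm5d and Uty on the Y chromosome were high in arrays 2 to 5 (Eif2s3y 9.40 to 9.93) and low in arrays 1, 6, 7 and 8 (4.21 to 4.78). Array 2 was therefore the only E12.5 array with Y-linked genes at the upper level and Xist between the levels of the other arrays. The labels give no sex. In the 16 arrays of E11.5 and E16.5 Xist was between 5.01 and 6.03 or between 11.28 and 12.02, and Eif2s3y was high where Xist was low. Arrays 2 and 3, the ends of the muscle range, were both on the Y-linked side.

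Array 4 was low in a set of genes that the other 7 arrays measured well above it. Aldh1a2, the enzyme that makes retinoic acid in the fold, measured 7.62 there and 10.2 to 10.9 elsewhere. Mrc1, the macrophage mannose receptor, measured 6.45 and 8.42 to 8.93, and Atxn1, ataxin 1, 6.18 and 9.34 to 11.3. Atxn1 also ran from 3.99 to 11.64 among the arrays of E11.5, so low values of it were not particular to this array. In all, 142 genes lay 0.5 or more below every other array in array 4 and 32 as far above. The matching counts were 113 and 176 for array 2, 11 and 94 for array 3, and 47 and 19 for array 1, and at most 20 and 23 for arrays 5 to 8. Array 1 held the low value of Otor (6.18 against 8.03 to 9.91), a secreted protein of cartilage.

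Of the 18 listed heart muscle markers 10 were highest in array 5, and no other array was highest in more than 2. The share of all genes highest in array 5 was not computed, and only 6 of the 18 had a mean of 8 or more. Some led by little: Nkx2-5 measured 8.01 in both arrays 5 and 8, Hand2 7.995 in array 5 and 7.968 in array 4, and Nppb 7.48 in array 5 and 7.36 in array 3. Myl2, the ventricular myosin light chain that slow skeletal fibres also use, measured 6.22, 6.16, 9.99, 6.50, 11.63, 6.81, 7.63 and 6.16 in arrays 1 to 8 (mean 7.64, below the level limit). Myl3 was likewise 9.63 in array 5 and 9.09 in array 3, against 7.13 to 7.89. Myl7, the atrial chain, was 9.38 in array 5 and 7.78 to 8.51 elsewhere, and Tnni3, cardiac troponin I, 9.50 and 8.36 to 9.01. Nppa, the atrial natriuretic peptide, measured 7.94 in array 5 and 6.79 to 7.30 elsewhere. The cardiac regulators Gata4 (9.57, against 10.03 in array 1) and Tbx5 (8.44, against 9.09 in array 6) and the calcium genes Pln and Ryr2 were not highest there, and Hand1, Tbx20, Myh7 and Sln were not either. The mean of the 18 markers was 8.36 in array 5 and 7.52 to 7.99 in the other 7; the part of heart tissue in these values was not tested.

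The relations were then tested on arrays that had not chosen the genes. At E11.5 no gene had a slope on Actn2 that passed an adjusted p of 0.05 in limma; at an unadjusted p under 0.05, 522 of 19350 genes had a positive slope (2.7%) and 448 a negative one (2.32%). At that unadjusted level 24 of the 65 genes had a positive slope, against 3.66% of the genes at this level, and 21 of 47 sarcomere genes, against 2.7% of all genes. Myh3, for one, had a slope of 1.14 log2 units per unit of Actn2 (unadjusted p = 0.000808, limma). This rested on array 1 of E11.5, whose Actn2 was 8.86 against 6.97 to 7.69 in the other 7: without it, 1 of the 65 remained.

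At E16.5, 463 genes had a higher and 259 a lower level with more Actn2 (limma, adjusted p under 0.05, n = 8 arrays). Of the 65 genes 11 were among the higher, 16.9% against 3.58% of the genes at this level, and none among the lower. They included Atp2a1 (slope 2.39 ± 0.27 SE, adjusted p = 0.0039), Des, the muscle intermediate filament (1.86 ± 0.21, adjusted p = 0.00386), and Pgam2 (1.76 ± 0.24, adjusted p = 0.00726). Embryonic muscle genes with a high r at E12.5 did not pass there: the slope was -0.12 ± 0.23 for Myh3 (adjusted p = 0.853) and -0.18 ± 0.24 for Tnni1 (adjusted p = 0.773). Of the sarcomere list 22 of 47 passed upward and 0 downward, against 2.39% and 1.34% of all genes. Genes of other kinds moved with them. Upward went 15 of 22 muscle energy genes, 9 of 22 calcium-handling genes, 16 of 37 genes of oxidative phosphorylation and 6 of 21 endothelial genes. Downward went 15 of 50 cell cycle genes, 4 of 21 mesothelial genes and 3 of 15 red cell genes. The part of other cell types in the slopes was not tested.

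Of the 21 genes inverse to Actn2 at E12.5, 4 were lower at E16.5 with more Actn2, against 2.73%: Car2, Kel, Hmmr and Cd24a. The call of Cd24a was lost in each of the 8 fits that left out an array, that of Kel in 6, of Car2 in 3 and of Hmmr in 2. Actn2 itself followed a division of the E16.5 arrays. It was 12.85 to 13.07 in arrays 1 to 4 of E16.5 and 12.38 to 12.68 in arrays 5 to 8. With a term for that division, added after the data were seen, 0 genes passed. The levels of Actn2 did not overlap across the division, so the term left little of its variation to fit. The loss of calls therefore cannot tell Actn2 and the division apart. The division nearly matched that of Xist, which was 5.01 to 5.63 in arrays 1 to 3 of E16.5 and 11.28 to 11.67 in arrays 4 to 8. The part of sex-linked differences in the slopes was not tested. Without array 4 of E16.5 5 of the 65 passed, and without array 2 none of the 21.

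On Alb at E16.5, 8 genes had a positive slope (0.0413%) and 1 a negative one (0.00517%; limma, adjusted p under 0.05). Of the 31 genes related to Alb at E12.5, 4 passed upward, against 0.0534% of the genes at this level: Afp (slope 1.36 ± 0.11 SE, adjusted p = 0.0047), Apoa2 (1.04 ± 0.09, adjusted p = 0.00523), Ttr (1.12 ± 0.11, adjusted p = 0.0121) and Rbp4, the retinol carrier of plasma (adjusted p = 0.0468, lost in 7 of 8 fits that left out an array). No other gene at this level passed upward. None of the 27 inverse genes passed. Of the hepatocyte list 6 of 27 passed, and 20 did so at an unadjusted p, against 2.42%. Array 4 of E16.5 had the lowest Alb, 11.53 against 12.54 to 13.22, and without it 0 genes passed.

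Genes that followed Actn2 at E12.5 were mostly those that were higher at E16.5 than at E11.5, a comparison made without the E12.5 arrays. Of the 65 genes 49 were higher and 5 lower (limma, adjusted p under 0.05), 75.4% and 7.69%, against 17.8% and 27.6% of the 7487 genes. Their median change was 1.69 on the log2 scale, against -0.09. Myoz2 rose by 5.73 ± 0.15 (SE, adjusted p = 3.91e-15), Casq2 by 5.33 ± 0.24 (adjusted p = 9.28e-12) and Actc1, already bright at E11.5, by 1.89 ± 0.14 (adjusted p = 1.63e-08). Myod1, with a change of 0.22 ± 0.14, did not pass (adjusted p = 0.267). Fblim1, a filamin-binding adhesion protein, fell by 1.17 and Cntfr, a cytokine receptor subunit, by 1.14 (adjusted p = 8.06e-05 and 0.000117). The genes that stood out in array 3 rose as well, Myh8 by 5.47 ± 0.21 and Casq1 by 5.16 ± 0.21. Tnnt3 measured 8.01 to 9.21 at E11.5 and 13.83 to 14.12 at E16.5, the top of the scale of these arrays, where a difference can be understated.

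Of the 31 genes related to Alb, 17 were higher and 1 lower at E16.5 (54.8% and 3.23%), with a median change of 0.54. Afp rose by 5.27 ± 0.29 (adjusted p = 2.21e-10) and Apoa2 by 4.73 ± 0.26. Tuba4a, a tubulin, rose by 2.98 ± 0.18, and Snrnp25, a splicing protein, fell by 0.99 ± 0.20. Of the 27 genes inverse to Alb 4 were higher and 12 lower, and of the 21 inverse to Actn2 2 and 2. Zfp57, which keeps imprinting marks, fell by 1.36 ± 0.13 (adjusted p = 2.81e-07), and Lamc1, a laminin chain, rose by 0.88 ± 0.13 (adjusted p = 4.14e-05).

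**Figure D5:**
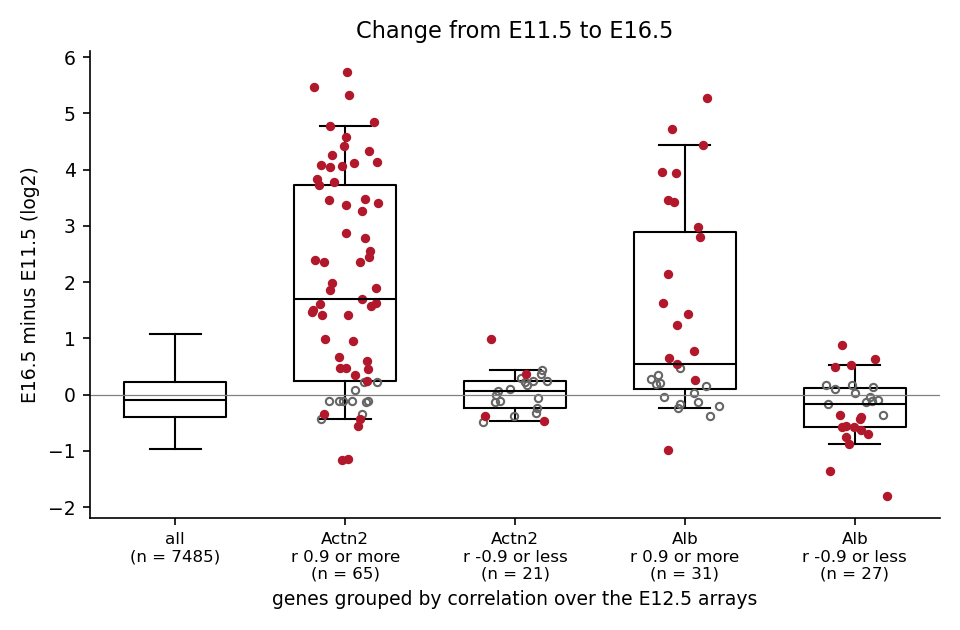
Change from E11.5 to E16.5 (log2, y axis) of genes with an E12.5 mean of 8 or more other than Actn2 and Alb, and of the 4 groups by correlation over the E12.5 arrays; boxes give the quartiles and median, whiskers the 5th and 95th percentiles, filled points the genes with an adjusted p under 0.05 (limma) and open points the others. In the group related to Actn2, 49 of 65 genes are higher and 5 lower at E16.5, and in the group related to Alb 17 of 31 and 1.

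Whether genes spread more at E12.5 than at the other stages was tested on the absolute deviations from the stage mean (limma, 24 arrays). Against E11.5, 0 genes were wider (378 at an unadjusted p under 0.05) and 7 narrower (2132 unadjusted) at an adjusted p under 0.05 (0.0362% of 19351). Among the 7487 genes with an E12.5 mean of 8 or more, 67 were wider and 1195 narrower at an unadjusted p. Of the 28 hepatocyte genes 23 were wider at E12.5 at an unadjusted p, against 1.95% of all genes, and 0 after adjustment. The mean of this list was only 6.52 to 6.78 in the E11.5 arrays, a low level that left little room for spread at that stage. The list was also chosen with earlier results of these arrays known. The count of 23 is therefore a description, and whether liver genes varied more at E12.5 for another reason was not tested. Against E16.5, 11 genes were wider (0.0568%) and 190 narrower (0.982%). Among sarcomere genes Myl2 and Smpx, a small muscle protein, were wider and Actn3, Mybpc2, Myh1 and Myh2, genes of adult fast fibres, narrower. The mean absolute deviation of Myl2 differed by 1.65 (adjusted p = 0.0116), a call that was lost without array 3 or array 5 of E12.5 (adjusted p up to 0.105), and that of Mybpc2 by -1.23 (adjusted p = 7.19e-05). For Smpx it differed by 0.91 (adjusted p = 0.0195, lost without array 7 or array 8 of E12.5, adjusted p up to 0.0607).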

How the data were processed

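Per the submitters' processing notes, the 24 arrays (8 per stage) were processed with Affymetrix Expression Console 1.1, RMA and R 2.9.2; the deposited values lie between 2.56 and 14.1 and were taken as log2 intensities, a scale that no label states. Whether all arrays were normalised in 1 run is not given in the sources used here. Precision is limited by having 8 arrays per stage.

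Of 24200 probe sets, 20760 had 1 gene symbol, 1140 several and 2300 none; the brightest probe set stood for each of 19351 genes. Slopes on Actn2 or Alb within E11.5 and E16.5, absolute deviations over the 24 arrays, and E16.5 minus E11.5 over 16 arrays were fitted with limma 3.58.1 (R 4.3.3) over all genes, two-sided, with Benjamini-Hochberg adjustment, and tested on simulated data. Correlations, groups and motif searches used Python 3.11.15. Array numbers are the replicate numbers of the labels. They did not pair the stages: deviations of same-numbered arrays correlated between -0.28 and 0.09.

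The members and the 25 gene lists (656 entries, 39 unmatched) were chosen with earlier results of these data known. Named genes are those of highest SD, of highest or lowest correlation, of highest SD in each list, and with the largest called changes in the tests. Ckm, Eno3, Vamp8, Pgam2 beside Eno3, and the heart markers other than Myl2 and Myl3 were named after their values had been seen.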

Additional observations from a re-analysis of the deposited data

Results flagged for a closer look

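In 32 values examined over the 8 arrays of E12.5 (components and list means), 6 had 1 array set apart from the nearest other by more than 0.526 of the whole range, where chance sets apart about 1 in 20 of groups that are independent. The components and the overlapping lists are not independent, so the 6 are a description without a test. On the first component array 2 stood at 31.3, and the nearest array at 1.56. On the second, array 4 stood at 26.2, and the nearest at 1.15. The mean of the hepatocyte list was 10.66 in array 2, with 8.76 in array 4 next. The mean of the cell cycle list was 10.21 in array 2 and 10.08 in the nearest array. The mean of the muscle energy list was 9.26 in array 3 and 8.49 in the nearest. The mean of the myogenic regulator list was 8.05 in array 2, lowest, with 8.39 next. Array 2 accounts for 4 of the 6, so they are not separate observations.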

How the results depend on the processing

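The 8 arrays set the limits here: correlations over 8 points move when 1 array is left out, and no label says which arrays share an embryo. Where a value moved, the cause was not tested beyond what the setting itself changes.

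Genes at r 0.9 or more with Actn2 numbered 39 with a mean of 9 or more and 239 at an r of 0.8. Those at -0.9 or less numbered 36 with a mean of 7 or more, 6 with a mean of 9 or more, 108 at 0.8, 35 without the 2 far arrays and 6 against the sarcomere list mean. The sarcomere median was 0.8333 by Spearman and 0.6074 without the far arrays, and Actn2 with Alb gave -0.0238 and 0.1952. Genes at 0.9 or more with Alb numbered 48 (mean of 7 or more), 17 (9 or more), 155 (r of 0.8), 72 (far arrays out), 62 (hepatocyte list mean) and 49 (partial correlation); at -0.9 or less 17, 145, 86 and 49 (9 or more, 0.8, far arrays out, list mean).

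Leaving out 1 array gave 58 to 116 and 23 to 86 genes for Actn2, 34 to 96 and 33 to 73 for Alb, medians of 0.922 to 0.9587 (sarcomere) and 0.8982 to 0.9715 (hepatocyte), and -0.6796 to 0.2882 between Actn2 and Alb. Of the 4 counts, leaving out array 4 moved 3 furthest and array 3 the other, and array 2 moved each least. The last turned positive without array 2.

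The E16.5 slope on Actn2 called 279 genes upward after quantile normalization, and 0 upward and 0 downward with the term for arrays 1 to 4; without 1 array 155 to 365 and 71 to 205. Among the genes related to Actn2, 7 (quantile), 17 (trend and robust options) and 0 (term) were upward, 5 to 9 without 1 array; among the inverse genes 2 (quantile, median centring or list mean) and 0 (term) were downward, 0 to 6 without 1 array. At E11.5 all fits without 1 array called 0 genes, and the unadjusted count ran from 1 to 25. The slope on Alb called 5 (level limit) and 16 (list mean) upward, and 0 (level limit, quantile, median centring, term) or 2 (75th percentile, trend and robust, list mean) downward; without 1 array 0 to 7 and 0 to 3, and 0 to 4 of the 31.

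Against E11.5, 4 genes were wider with trend and robust options, and 0 (stage median, squared), 2 (quantile, 75th percentile), 3 (median centring, trend and robust) or 15 (level limit) narrower; without 1 array 0 to 3 and 0 to 35. Against E16.5, 3 (stage median), 0 (squared) or 4 (level limit) were wider and 95, 61 and 95 narrower; without 1 array 10 to 17 and 135 to 225. For E16.5 minus E11.5, leaving out arrays 1 to 4 of E16.5, like the term for them a setting chosen after seeing the data, gave 3 lower among the genes related to Actn2, 4 higher and 0 lower among those inverse to it, and 2 higher among those inverse to Alb; leaving out arrays 5 to 8 gave 3, 4 lower among those inverse to Actn2, and 2 lower among those related to Alb. With no level limit, 8 were higher and 4 lower (inverse to Actn2), 32 higher (related to Alb) and 8 higher (inverse to Alb). Without 1 array the counts were 47 to 49 and 4 to 6, 2 to 3 and 0 to 2, 16 to 18 and 1 to 2, and 3 to 5 and 12 to 13.

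The replicate number used as a block, although the numbers do not pair the arrays, gave 1 narrower gene against E11.5 and 0 lower genes among those inverse to Actn2.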
